A study of Rattus with 12 samples.

Results

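The cultures of this series fell on both sides of a gap in the mRNA of Arc, a neuronal activity-regulated gene, and the report describes how the cultures with little Arc differed from the cultures that expressed it. Cultures were chosen by their Arc level, given as counts per 1000000 counts of the library (CPM). Of 12 cultures, 3 had an Arc level under 5 CPM (A, B and C, called Arc-low) and 8 had a level above 10 CPM (H, I, M, N, O, P, Q and R, called Arc-expressing). The remaining culture, untreated culture G had 1.11 CPM and was left out by the rule. Just inside the lower limit was culture B with 3.56 CPM, and just outside the upper limit was culture R with 11.8 CPM. Since measured values formed the classes, every difference between the classes is given as a description, with an estimate and its standard error (SE) and without a test.

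The cultures were grown from commercially supplied cortical neurons, astrocytes and oligodendrocyte precursor cells (OPCs) of Sprague Dawley rats and were exposed for 4 days to fentanyl, an agonist of the μ opioid receptor. They were left untreated, or received fentanyl at 0.01 μM, the low dose, or at 10 μM, the high dose. Among the Arc-low cultures, A was untreated, B received the low dose and C the high dose. Of the Arc-expressing cultures, M and P were untreated, H, N and Q received the low dose, and I, O and R the high dose. Consecutive letters span the doses, as A to C do, and likewise G to I, M to O, and P to R, and what such a run of letters shares is stated neither in the labels nor in the methods. The Arc-low cultures are exactly the run A-B-C, so that the Arc class and whatever that run shares cannot be told apart, and no class difference can be computed within a run. The sources do not say whether the cultures of one class came from separate lots of cells, so that the spread between them may be technical.

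Arc is an immediate early gene, one of the genes that neurons transcribe within minutes of synaptic activity and calcium entry without new protein synthesis. The Arc protein acts at the synapse, where it promotes the uptake of AMPA receptors. The first wave of the activity response consists mainly of transcription factors (Fos, the Egr and Nr4a families, Npas4). These switch on a later wave of effector genes, among them secreted neuropeptides and trophic factors such as Bdnf and Adcyap1. Astrocytes and oligodendrocytes also transcribe some immediate early genes, whereas Npas4 is largely restricted to neurons. Because RNA of whole cultures was measured, fewer cells of a type and less RNA per cell cannot be told apart.

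Totals lay between 12059872 and 24813893 counts. The 3 Arc-low cultures resembled each other closely, with Spearman correlations across genes from 0.994 to 0.996. Pairs across the classes had a median of 0.954, and pairs of Arc-expressing cultures from different letter runs a median of 0.968. Within a letter run, pairs of Arc-expressing cultures had a median of 0.99 (0.98 to 0.997), so that such likeness was not particular to A, B and C. These values are across genes, which are not independent replicates. The log2 difference of a gene, Arc-low minus Arc-expressing, was estimated with dose as a covariate over 11 cultures (3 against 8). Its SE counts each culture as a separate replicate and leaves out the likeness within letter runs, so that it may be too small. A gene was counted as lower or higher when all 3 Arc-low cultures lay beyond all 8 Arc-expressing cultures and the difference was over 2-fold. Of 12337 genes, 767 (6.22%) were lower and 362 (2.93%) were higher in the Arc-low cultures by this definition. With culture G added to the Arc-low class, 326 were lower and 111 higher. Without overlap at any fold were 2376 genes (19.3%) on the lower side and 2072 (16.8%) on the higher side. These shares of all genes stand beside every list count below, and 1 counted member does not set a list apart. The median log2 difference of all genes was -0.03.

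The rapid immediate early genes were lower in the Arc-low cultures in part of the list. Of 29 measured members, 6 were lower, none was higher, and 8 lay below all Arc-expressing cultures at any fold. The median log2 difference of the list was -0.43. Arc itself, which defined the classes, was at 1.65, 3.54 and 2.13 CPM in cultures A, B and C after scaling, and between 12.1 and 170 CPM (median 38.5) in the Arc-expressing cultures. Npas4, a transcription factor induced by calcium entry into neurons, was at 0.236, 0.538 and 0.237 CPM, against 3.06 to 81.3 CPM (median 15.6). Its log2 difference was -6.32 (SE 1.59), and no Arc-low culture reached 1 CPM of Npas4. Egr4, a zinc-finger transcription factor, was at 1.83, 1.85 and 1.60 CPM, against 5.37 to 37.3 CPM (median 10.6). Nr4a1, an orphan nuclear receptor, was at 6.31, 5.23 and 5.74 CPM, against 16.2 to 53.2 CPM (median 36.3), a log2 difference of -2.46 (SE 0.34). Both genes were nearly level among A, B and C, whereas their Arc-expressing cultures spread widely. Egr3, of the same zinc-finger family, had a log2 difference of -2.01 (SE 0.46). Fos, a subunit of the AP-1 transcription factor, was at 49.2, 46.9 and 56.4 CPM, against 83.8 to 197 CPM (median 129), a log2 difference of -1.35 (SE 0.28). Fos was thus still well expressed in the Arc-low cultures, and the classes did not overlap.

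The other rapid genes differed less. Jun, the partner of Fos in AP-1, was at 214, 214 and 204 CPM, against 297 to 361 CPM, a difference of -0.64 (SE 0.08) on the log2 scale that stayed under 2-fold. Gadd45b, a gene induced by stress and by activity, also lay below all Arc-expressing cultures, with a log2 difference of -0.63 (SE 0.13). Egr1, often used with Arc to mark active neurons, was at 28.6, 27.2 and 47.0 CPM, against 35.2 to 172 CPM (median 53.6). Culture C was within the range of the Arc-expressing cultures for Egr1, and the log2 difference of -1.05 had an SE of 0.56. Junb, another AP-1 subunit, overlapped throughout, with 77.8, 69.8 and 81.6 CPM against 45.1 to 155 CPM. Fosb, Fosl2, Nr4a2 and 16 further members likewise overlapped between the classes.

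**Figure D1:**
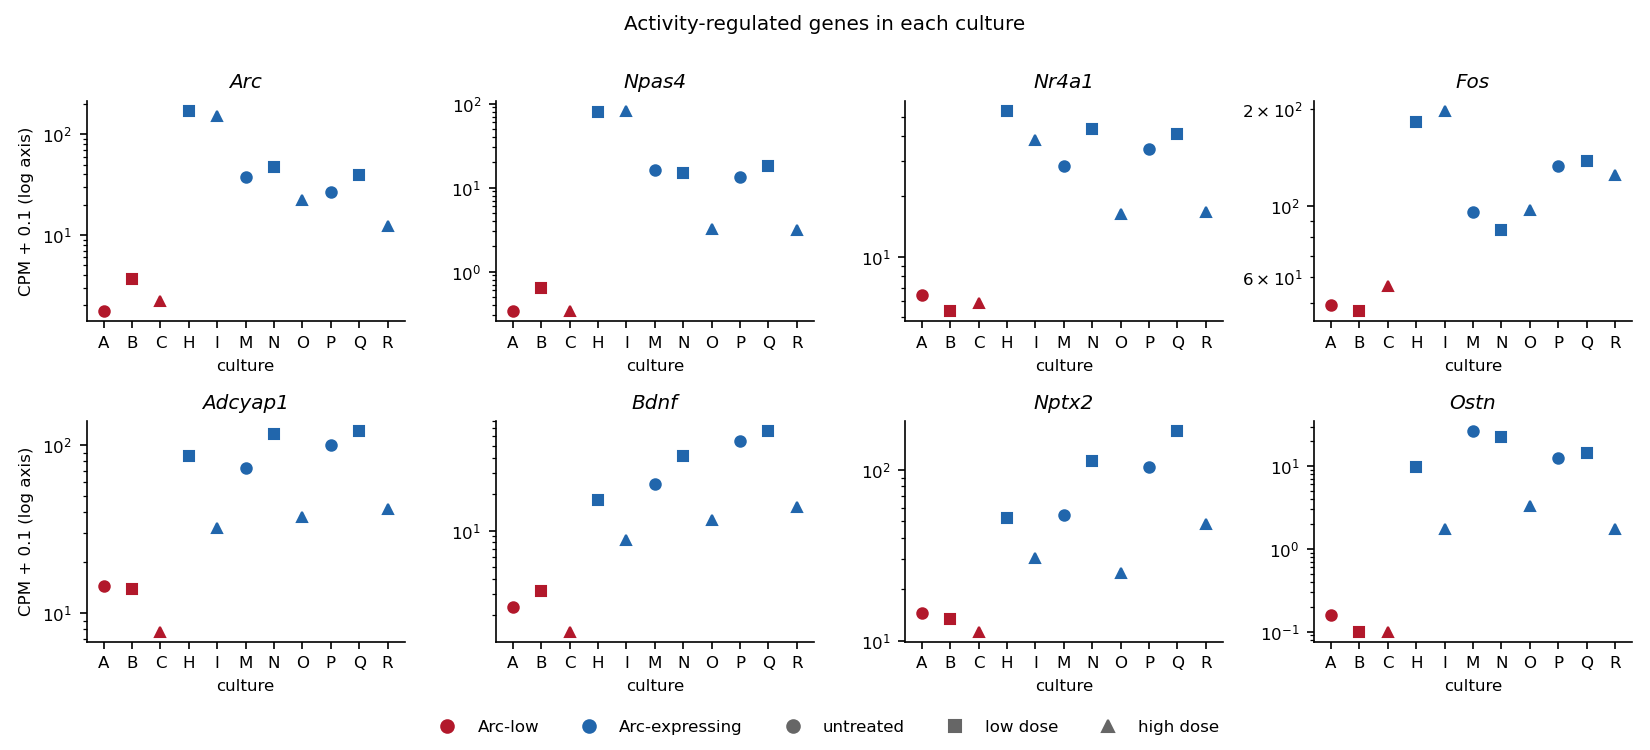
CPM plus 0.1 on a log axis (vertical) of 8 activity-regulated genes in each of the 11 cultures (horizontal, by letter), red for Arc-low and blue for Arc-expressing, with circles for untreated, squares for the low dose and triangles for the high dose. The 3 Arc-low cultures lie below all 8 Arc-expressing cultures in each panel, and Ostn had no count in cultures B and C.

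Among the secreted factors, the larger part was lower in the Arc-low cultures and a few were higher. Of 17 measured members, 8 were lower and 2 were higher, and the median log2 difference was -1.56. Adcyap1, which encodes the neuropeptide PACAP, was at 14.4, 13.8 and 7.64 CPM in A, B and C, against 32.0 to 121 CPM (median 79.2). The log2 difference of Adcyap1 was -2.60 (SE 0.19), a 6.05-fold lower level. Bdnf, the brain-derived neurotrophic factor, was at 2.24, 3.08 and 1.36 CPM, against 8.22 to 66.1 CPM (median 20.8), 12.9-fold lower with a log2 difference of -3.69 (SE 0.52). For both genes the lowest Arc-expressing value was that of culture I, which had received the high dose and had one of the highest Arc levels. Ostn, which encodes osteocrin, a secreted peptide also known from bone and muscle, had 1 count in the 3 Arc-low cultures together and 1368 counts in the 8 Arc-expressing cultures, where it reached 1.65 to 26.2 CPM. Relative to the totals, this ratio was 480 (95% interval from 86.1 to 18992), which covers counting error only. Crh, the corticotropin-releasing hormone, had 3 counts against 278, a ratio of 32.5 (95% interval from 11 to 159).

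Further secreted factors followed the same order. Nptx2, a pentraxin that gathers AMPA receptors at synapses, was at 14.5, 13.4 and 11.3 CPM, against 24.9 to 168 CPM (median 53.3), a log2 difference of -2.32 (SE 0.45). Scg2, the granin secretogranin II of dense-core vesicles, was at 74.4, 75.4 and 49.1 CPM, against 108 to 795 CPM (median 293), a log2 difference of -2.36 (SE 0.57). Nrn1, neuritin, was 3.17-fold lower, and Npy, neuropeptide Y of inhibitory neurons, was 2.67-fold lower. Vgf, a precursor of secreted peptides, had a log2 difference of -1.56 (SE 0.22), but its classes overlapped, since culture A at 162 CPM was above cultures I and R. On the other side, Nptx1, a pentraxin closely related to Nptx2, was at 303, 227 and 228 CPM, against 40.2 to 165 CPM (median 95.1), 2.63-fold higher in the Arc-low cultures. The neuropeptide somatostatin, Sst, was at 19.0, 16.7 and 15.6 CPM, against 2.81 to 10.8 CPM, also 2.63-fold higher. Without culture A the log2 difference of Sst was 0.92, and 1 secreted factor was left as higher. Pcsk1, a convertase that cuts prohormones, was above all Arc-expressing cultures at 1.86-fold. The 2 related pentraxins thus lay on opposite sides.

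Of 16 intracellular and membrane effectors, 4 were lower and none was higher, with a median log2 difference of -0.46. Ptgs2, which encodes the inducible cyclooxygenase COX-2, was at 0.943, 1.38 and 1.48 CPM, against 3.02 to 12.3 CPM, a log2 difference of -2.22 (SE 0.55). Rgs2, a regulator of G protein signaling, was at 12.1, 15.5 and 17.5 CPM, against 34.5 to 66.9 CPM, a log2 difference of -1.67 (SE 0.25). Cdkn1a, the cell cycle inhibitor p21, was 2.21-fold lower, and the pseudokinase Trib1 was 2.01-fold lower. Lower without overlap but under 2-fold were Rgs4, Rasgrp1 and Syt4. Homer1, a postsynaptic scaffold gene whose short isoform is induced by activity, was at 95.4, 93.8 and 91.4 CPM, against 51.5 to 77.6 CPM, 1.41-fold higher, and the counts per gene do not separate its isoforms. Pcdh8 and Synpo, both of which act at dendritic spines, were likewise above all Arc-expressing cultures, at 1.54-fold and 1.20-fold. At any fold, 3 of the 16 effectors thus lay above and 7 lay below all Arc-expressing cultures. Among all genes, 16.8% lay above and 19.3% below, so that the higher effectors were near the share of all genes.

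**Figure D2:**
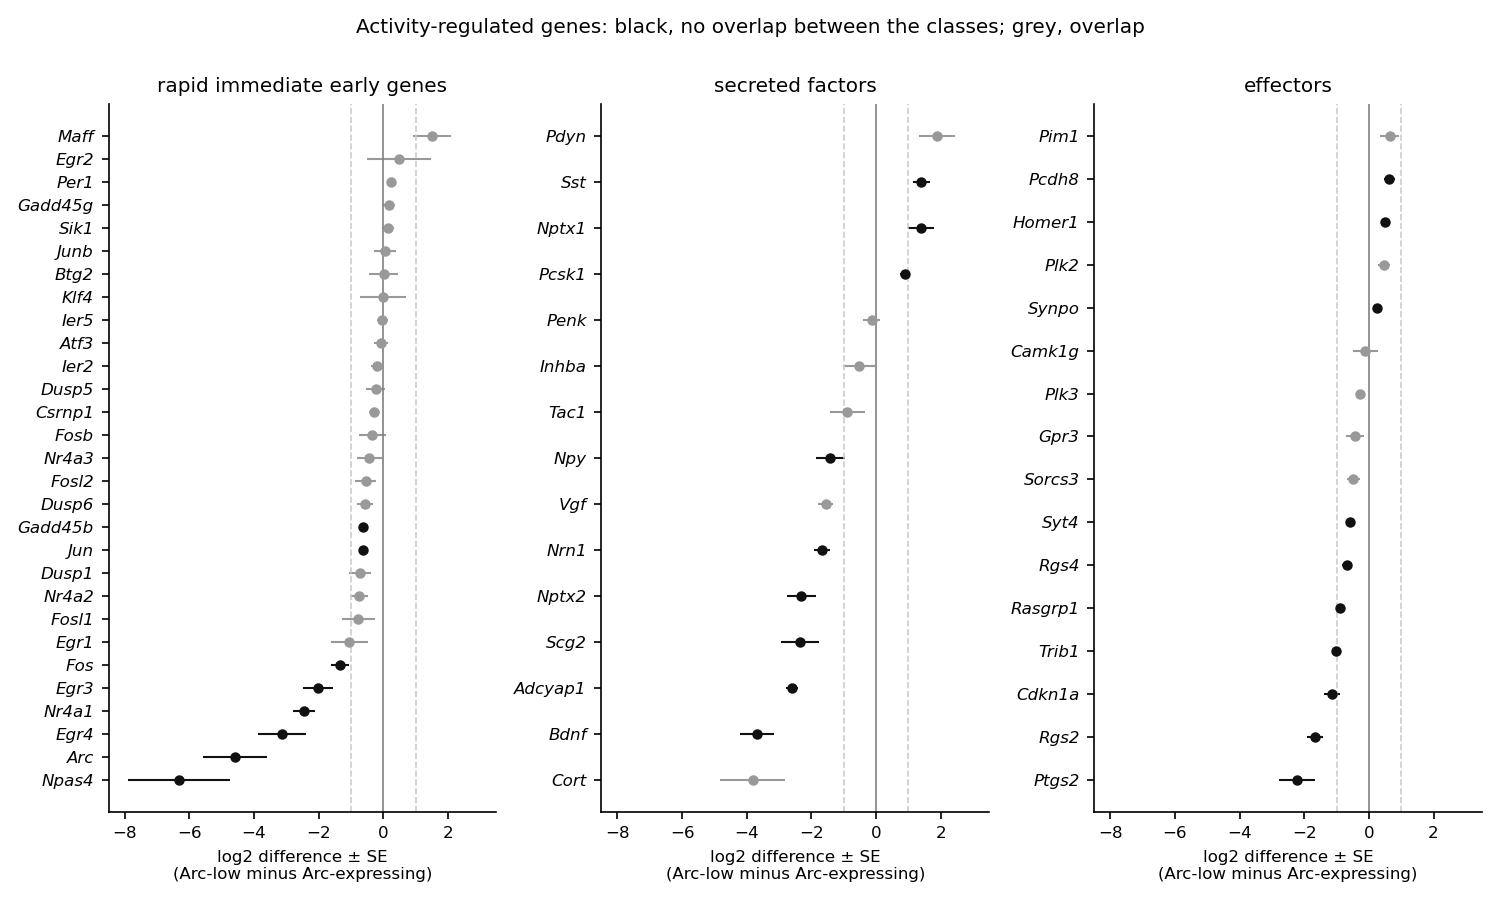
Log2 difference, Arc-low minus Arc-expressing, with its SE (horizontal) for the rapid immediate early genes, secreted factors and effectors (vertical, 1 gene per line), black where the classes did not overlap and grey where they did. Dashed lines mark 2-fold, Npas4 is lowest at -6.32, and Ostn and Crh are not drawn because of their low counts.

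The Arc-expressing cultures were not uniform. Arc, Npas4 and Egr4 were highest in cultures H and I, with 79.8 and 81.3 CPM of Npas4 against at most 18.0 CPM in the other Arc-expressing cultures. Bdnf and Scg2 were highest in cultures P and Q. Scg2, for example, was at 729 and 795 CPM in P and Q and at 278 and 108 CPM in H and I. The cultures highest in Arc, Npas4 and Egr4 were therefore not those highest in Bdnf and Scg2. With both H and I left out, the number of genes lower and higher in the Arc-low cultures was within 1.5 times that of all cultures.

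Components of the path from calcium to the nucleus and partners of the Arc protein showed small differences in both directions. Of 25 measured members of the calcium path, 1 was lower and 1 was higher, against 6.22% and 2.93% of all genes. The median log2 difference of the path was 0.15. Without culture C, 2 were higher. Camk4, the nuclear calcium/calmodulin-dependent kinase IV, was at 5.66, 6.92 and 8.29 CPM, against 14 to 25.3 CPM, a log2 difference of -1.35 (SE 0.21). Rps6ka2, a ribosomal S6 kinase, was 1.96-fold higher without overlap. Of 10 genes for partners and turnover of the Arc protein, 1 was lower, with a median of 0.11. The count was 2 without culture B, C, M, N or O. The member was Dnm2, the dynamin that acts with Arc in endocytosis, at 102, 111 and 116 CPM against 181 to 271 CPM. Without culture A or P its difference was under 2-fold, and no partner was then lower. Sh3gl3, an endophilin, and Cacng2, the AMPA receptor subunit stargazin, lay below all Arc-expressing cultures at less than 2-fold.

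Receptors and channels were lower in part. Of 22 glutamate receptor genes, 4 were lower and 1 was higher, with a median of -0.16. Grm8, a presynaptic metabotropic receptor, and Grin3a, an NMDA receptor subunit, had log2 differences of -2.77 (SE 0.47) and -2.24 (SE 0.35), and both were under 1 CPM in each Arc-low culture. Of 12 GABA-A receptor subunits, 3 were lower and none was higher, with a median of -0.54. Gabrg1 was at 5.72, 9.92 and 6.40 CPM, against 19.5 to 32.8 CPM, and Gabrg3 and Gabra5 were 2.66-fold and 2.24-fold lower. Of 23 sodium, potassium and pacemaker channel genes, 5 were lower and none was higher, with a median of -0.31. Hcn2, a pacemaker channel, was at 81.2, 74.6 and 65.8 CPM, against 129 to 325 CPM, a log2 difference of -1.49 (SE 0.31). Kcnq3, a subunit of the M-type potassium channel, was 2.74-fold lower.

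Among genes of synaptic vesicle release and of the opioid system, none was both without overlap and past 2-fold. Of 18 vesicle genes, none was lower or higher, and the median was 0.03. Syn1 and Syn2, synapsins that tether vesicles, lay above all Arc-expressing cultures with log2 differences of 0.65 (SE 0.19) and 0.68 (SE 0.11), and Cplx2, a complexin, lay below them with -0.66 (SE 0.22). Of 8 opioid receptors and peptides, 6 passed the filter on low counts. None of these 6 was lower or higher, and the median was 0.05. Pdyn, the precursor of dynorphin, was at 10.1, 9.46 and 4.09 CPM, against 0.665 to 9.63 CPM, 3.69-fold higher by the estimate, and overlapped through cultures H and N. Pomc, the precursor of β-endorphin, was below all Arc-expressing cultures with a log2 difference of -0.71 (SE 0.22), at 1.24, 2.15 and 1.60 CPM.

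The 12 neuron markers as a set were at the level of the Arc-expressing cultures, while markers of the oligodendrocyte lineage were lower. The neuron score, the mean of log2(CPM + 1) over 12 markers, was 7.59, 7.54 and 7.55 in A, B and C, within the range from 7.29 to 7.68 of the Arc-expressing cultures. None of the 12 neuron markers was lower or higher past 2-fold, and the median log2 difference was 0.04. At any fold, 4 of them lay above and 1 lay below all Arc-expressing cultures. Map2, a dendritic microtubule protein, was 1.48-fold higher and Nefl, a neurofilament subunit, 1.48-fold lower. Of 9 glutamatergic markers, 1 was higher (Neurod2, 2.76-fold) and 1 was lower (Fezf2, 2.79-fold), with a median of 0.19. The glutamatergic score was 5.03, 5.06 and 5.06 in A, B and C, against 4.77 to 5.02 in the Arc-expressing cultures. The gap was very narrow, with 5.0255 in culture A against 5.0240 in culture I. Of 14 GABAergic markers, 4 were lower and 1 was higher, with a median of -0.73. The GABAergic score was 2.71, 2.69 and 2.61, below the range from 2.79 to 3.30 of the Arc-expressing cultures. Pvalb, parvalbumin of fast-spiking interneurons, was at 10.5, 10.8 and 13.4 CPM, against 23.3 to 40.8 CPM, whereas the GABA synthesis genes Gad1 and Gad2 overlapped between the classes. The higher GABAergic marker was Sst, which did not pass 2-fold without culture A, and Npy was among the lower ones, and both are also members of the secreted factors.

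Of 12 oligodendrocyte markers, 9 were lower and none was higher, with a median log2 difference of -2.19. Mbp, the myelin basic protein, was at 903, 1417 and 1138 CPM, against 3560 to 9857 CPM (median 7390), 6.22-fold lower. Aspa, the aspartoacylase of oligodendrocytes, was 13-fold lower. Of 7 OPC markers, 6 were lower, with a median of -1.60, and 2 were lower with culture G added to the Arc-low class. Olig1, a transcription factor of the lineage, was at 43.8, 55.6 and 63.4 CPM, against 243 to 520 CPM, a log2 difference of -2.90 (SE 0.28). Pdgfra, the receptor that marks OPCs, differed less, with 93.2, 106 and 98.5 CPM against 107 to 172 CPM. The OPC score was 4.85, 5.20 and 5.44 against 6.43 to 7.16, and the oligodendrocyte score 5.25, 6.01 and 5.70 against 6.67 to 8.41. Neither score overlapped between the classes, and the part of this difference in the other differences was not tested.

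Markers of other cells did not separate the classes as a whole. Of 11 astrocyte markers, 1 was lower (Glul, glutamine synthetase, 2.69-fold), with a median of -0.37 (2 without culture H), and the astrocyte score of 7.54, 7.83 and 7.87 lay within 7.21 to 8.77. Of 14 microglia markers, none passed 2-fold without overlap. The microglia score was 4.16, 4.49 and 4.72, between the scores of 2.09 to 2.28 in cultures P, Q and R and those of 4.84 to 5.98 in the other Arc-expressing cultures. Of 9 fibroblast markers none was lower or higher (median -0.40), and their score reached 6.60 in culture N against 3.53 to 5.09 in the others. Of 5 endothelial markers, 1 was higher (Kdr, 2.06-fold) and 1 was lower (Vwf, 2.44-fold), with a median of -0.42. The call of Kdr was lost without culture B, H or P and that of Vwf without culture A.

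**Figure D3:**
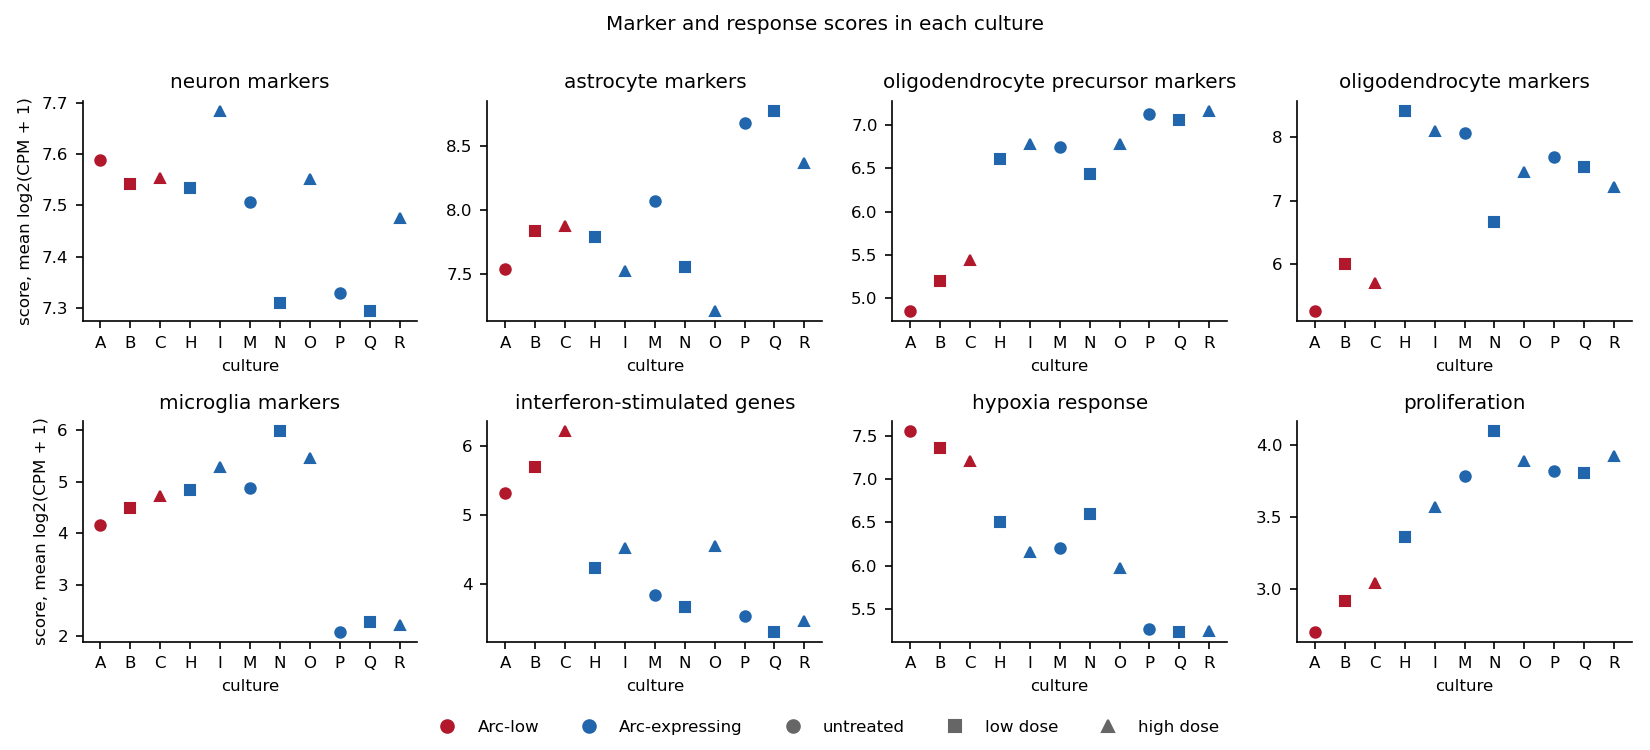
Scores of 5 marker lists and 3 response lists, averaged on the log2(CPM + 1) scale over kept members (vertical), in each of the 11 cultures (horizontal), coloured by Arc class and shaped by dose. Neuron scores of the Arc-low cultures lie within those of the Arc-expressing cultures, whereas OPC, oligodendrocyte, interferon, hypoxia and proliferation scores do not overlap.

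Interferon-stimulated genes were higher in the Arc-low cultures. Of 25 measured members, 17 were higher and none was lower, with a median log2 difference of 1.70, and 5 were higher with culture G added to the Arc-low class. Ifit3, an interferon-induced antiviral protein, was at 32.4, 36.7 and 91.1 CPM, against 0.496 to 7.86 CPM (median 1.47), 21.8-fold higher. Mx1, an antiviral GTPase, was at 83.9, 140 and 210 CPM, against 3.13 to 32.9 CPM (median 5.62). Rsad2, which encodes viperin, was at 52.8, 104 and 141 CPM, against 2.19 to 47.5 CPM. For Rsad2 the nearest Arc-expressing culture was O, which had received the high dose. The untreated and low dose Arc-expressing cultures were all under 7 CPM, but so was the high dose culture R. Isg15, a ubiquitin-like modifier, and Cxcl10, a chemokine, were 8.60-fold and 8.75-fold higher. Stat2, a transducer of the interferon signal, was at 116, 118 and 146 CPM, against 59.2 to 70.9 CPM, a difference of less than 2-fold without overlap. The microglia score named above overlapped between the classes, and its part in the interferon difference was not tested.

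Hypoxia-response genes were higher too, and proliferation genes were lower. Of 11 hypoxia-response genes, which HIF transcription factors switch on at low oxygen, 10 were higher and none was lower, with a median of 1.45. None was higher once culture G was added to the Arc-low class, which its Arc level would give. Vegfa, the vascular growth factor, was at 497, 503 and 374 CPM, against 64.6 to 204 CPM (median 135), 3.35-fold higher. Hk2, hexokinase 2 of glycolysis, was at 129, 89.4 and 105 CPM, against 7.22 to 44.0 CPM, 5.39-fold higher. Car9, a carbonic anhydrase that is a common marker of hypoxia, was 6.81-fold higher at 5.39 to 10.9 CPM, and Pdk1, which limits entry of pyruvate into mitochondria, was 3.43-fold higher. Adm was the member that differed least, at -0.15 (SE 0.06) on the log2 scale. Of 12 proliferation genes, 6 were lower and none was higher, with a median of -1.02, and 0 were lower with culture G added. Mki67, which encodes the proliferation antigen Ki-67, was at 4.48, 5.62 and 8.70 CPM, against 13.5 to 38.5 CPM, a log2 difference of -2.18 (SE 0.30). Top2a, topoisomerase IIα, was 5.86-fold lower, while Pcna and Mcm2 of DNA replication overlapped. The OPC score was lower in the same cultures (4.85, 5.20 and 5.44 against 6.43 to 7.16), and a link between the 2 differences was not tested.

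Stress lists had small median differences. Of 12 genes of the integrated stress response, none was lower or higher past 2-fold, and the median was -0.30. Of these genes, 10 had a negative log2 difference. The score of this list did not overlap between the classes, by a narrow gap (6.630 to 6.787 in the Arc-low cultures against 6.791 to 7.054). Atf4 and Atf5, the transcription factors of this response, lay below all Arc-expressing cultures with log2 differences of -0.50 (SE 0.16) and -0.83 (SE 0.10). Of 7 heat shock genes, 1 was higher, with a median of 0.17. This was Hspa1a, an inducible chaperone, at 25, 20.7 and 19.8 CPM against 2.61 to 17.9 CPM.

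**Figure D4:**
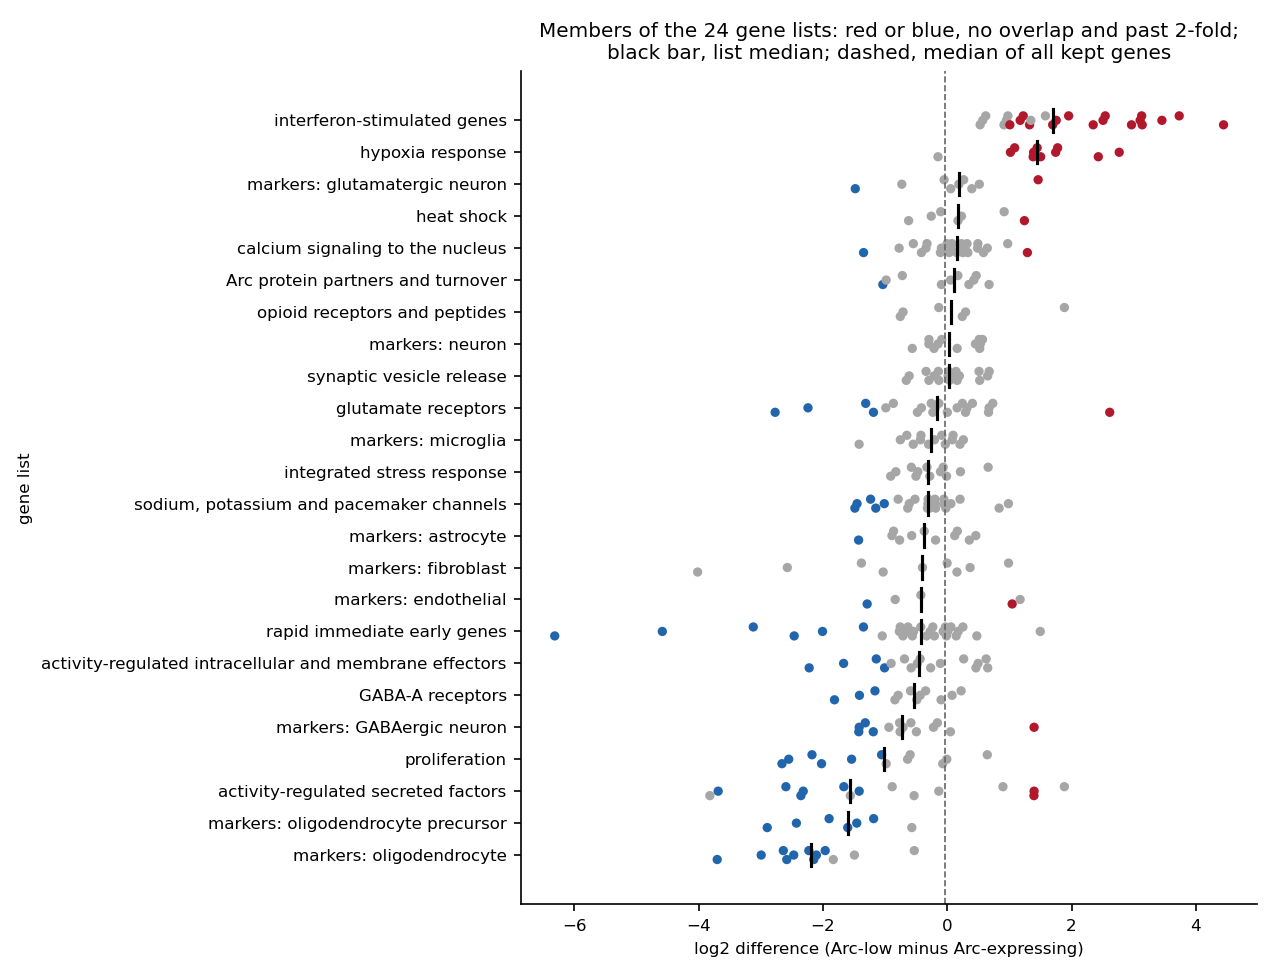
Log2 difference, Arc-low minus Arc-expressing (horizontal), of the members of 24 gene lists (vertical, ordered by median), in red or blue for members higher or lower without overlap and past 2-fold, with a black bar for the list median and a dashed line at the median of all kept genes, -0.03. Oligodendrocyte markers have the lowest median at -2.19 and interferon-stimulated genes the highest at 1.70.

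Across all genes with a mean of at least 10 CPM, the 10 with the lowest log2 differences included both activity and oligodendrocyte genes. Besides Npas4, Arc and Bdnf, these were Fzd10 (-4.05), a Wnt receptor, Atp2a3 (-4.05), a calcium pump of the endoplasmic reticulum, Chn2 (-3.88), a Rac GTPase-activating protein, Mustn1 (-3.78), Aspa (-3.70), Fam89a (-3.52) and Bmp4 (-3.44), a bone morphogenetic protein. Fzd10, for example, was at 0.530, 1.77 and 1.66 CPM, against 9.98 to 27.2 CPM. The 10 highest included 5 interferon-stimulated genes. The others were Gipr (4.75), the receptor of the gut hormone GIP, H19 (4.00), an imprinted noncoding RNA, Tagln (3.75), a protein of smooth muscle and other contractile cells, Nos1 (3.71), the neuronal nitric oxide synthase, and Vash2 (3.03). Gipr was at 66.6, 57.1 and 48.1 CPM, against 0.909 to 6.05 CPM. Tagln was at 604, 592 and 508 CPM, against 14.2 to 181 CPM, with the highest Arc-expressing value in culture N. Vash2, a relative of vasohibin, was at 34.8 to 46.5 CPM against 3.99 to 6.11 CPM.

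Whether the response to fentanyl dose differed between the Arc classes was tested, since the rule did not use dose. With the quasi-likelihood test of edgeR and Benjamini-Hochberg adjustment, no gene (0%) had a class difference in high dose minus low dose, with 41 genes at an unadjusted p under 0.05. For high dose minus untreated no gene (0%) passed either, with 109 genes at an unadjusted p under 0.05. The likelihood ratio test of edgeR and DESeq2 each called 1 gene in the first comparison, the ribosomal RNA gene Rn5-8s, and 0 in the second. There was 1 Arc-low culture per dose, so that the spread came from the Arc-expressing cultures alone. This spread also held the differences between letter runs, since the main test did not pair cultures by run. For Adcyap1, the class difference in high minus low dose was 0.68 on the log2 scale (SE 0.38), and for Bdnf it was 0.63 (SE 1.20). Intervals of this width do not show that the classes responded alike.

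The direction of the dose difference was shared by both classes for several secreted factors. On the log2(CPM + 1) scale, Adcyap1 was lower in the high dose than in the low dose culture of every letter run, by -0.78 in the Arc-low run and by -1.39, -1.62 and -1.52 in the runs of H, of N and of Q. Bdnf differed by -0.79 in the Arc-low run and by -1.02, -1.70 and -2.02 in the others. Scg2 differed by -0.61, -1.35, -1.45 and -1.30, and Vgf by -0.95, -1.73, -1.64 and -1.43. Each of these 4 genes was thus lower at the high dose in 4 of 4 runs, the Arc-low run included. The offset of 1 pulls values of low genes towards 0, as for Bdnf in the Arc-low run, so that the sizes are not ranked between runs. Ostn had no count in either fentanyl-treated Arc-low culture, so that it allowed no comparison there, and differed by -2.02, -2.50 and -2.53 in the Arc-expressing runs.

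**Figure D5:**
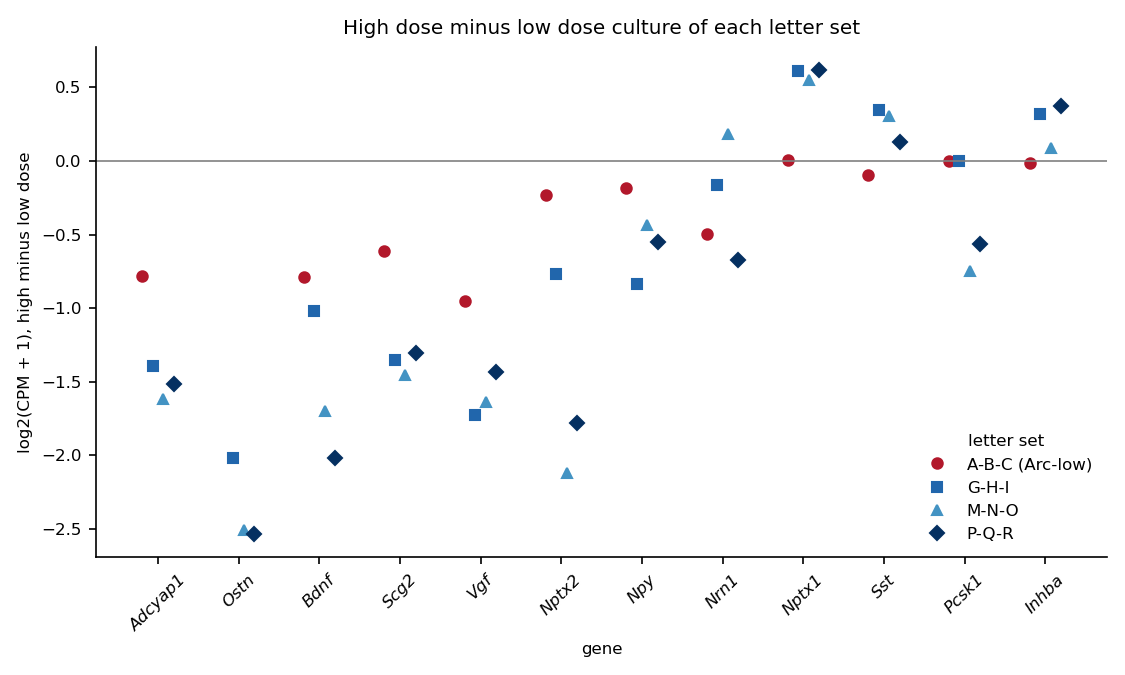
High dose minus low dose difference in log2(CPM + 1) (vertical) within each run of culture letters for 12 secreted factors (horizontal), with the Arc-low run as red circles and the 3 Arc-expressing runs in blue. Adcyap1, Bdnf, Scg2, Vgf, Nptx2 and Npy lie below 0 in all 4 runs, and Ostn is drawn for the Arc-expressing runs only.

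Tests of dose over both classes were added after the data were seen. With the Arc class as a covariate, edgeR's quasi-likelihood test called 1 gene (0.00811%) in high minus low dose and 1 gene (0.00811%) in high minus untreated, and in both this was Vcam1, a cell adhesion molecule. Vcam1 rose by 0.99 on the log2 scale at the high dose against the low dose (SE 0.10, adjusted p = 0.0276, edgeR) and by 1.29 against untreated (SE 0.11, adjusted p = 0.00722, edgeR), and it was higher at the high dose in every letter run, with culture G not used, so that the comparison with untreated covers 3 runs. Culture G had 5095 counts of Vcam1, more than any other culture. Adcyap1 did not pass with this covariate (adjusted p = 0.0869, edgeR), nor did Vgf (adjusted p = 0.133) or Ostn (adjusted p = 0.159). With a replicate block by letter run in place of the class, 16 genes (0.13%) passed in high minus low dose and 16 genes (0.13%) in high minus untreated. In high minus low dose, 5 of the 17 secreted factors fell under this block. Ostn fell by 2.84 on the log2 scale (adjusted p = 0.000403, edgeR), Adcyap1 by 1.42 (adjusted p = 0.0033), Bdnf by 1.63 (adjusted p = 0.0119), Scg2 by 1.20 (adjusted p = 0.0071) and Vgf by 1.48 (adjusted p = 0.0419). In high minus untreated, Ostn and Adcyap1 fell (adjusted p = 0.000864 and 0.0377, edgeR). None of the 29 rapid immediate early genes and none of the 16 effectors passed in either comparison, with the class or with the block. Npas4, for example, differed by -1.36 between high and low dose under the block (SE 0.43, adjusted p = 0.22, edgeR). Over the alternatives of the test with the class covariate, the adjusted p of Adcyap1 in high minus low dose ranged from 3e-10 to 0.591 and that of Vcam1 from 4.21e-14 to 0.146, and Vcam1 passed in 5 of 16 alternatives there and in 13 of 16 in high minus untreated.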

How the data were processed

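Poly(A)-enriched RNA of 12 rat cultures was sequenced with a kit that marks no strand, so that overlapping genes cannot be told apart, and the authors aligned the reads with STAR to rn6 and deposited featureCounts counts per gene, without normalization (per the labels and methods). The table lists 17337 genes, of which 2226 had no count. Groups come from the labels and Arc classes from the counts. In R 4.3.3 with edgeR 4.0.16, counts of 11 cultures were scaled by TMM, filtered by filterByExpr on dose (12337 genes kept) and fitted with dose and class, and CPM are TMM-scaled. The study also removed unwanted variation, which was not done here. Tests of dose and of dose by class used edgeR's quasi-likelihood fit, at an adjusted p of 0.05. DESeq2 1.42.0, other scalings and filters, left-out cultures and a replicate block were alternatives. Deviations from the dose means correlated within letter runs in all 10 pairs (minimum 0.528, mean 0.782), so that the runs pair the cultures by the data, while no source names them. The procedure was tested on simulated counts without differences between letter runs, so that this check does not cover such differences. At totals of 12059872 to 24813893, counts of 3 or fewer were read as the floor, for counting error only.

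The members, the 24 lists (339 genes) and the tests were chosen with earlier results of these data known. Named genes were Arc, Adcyap1 and Ostn, members of the 3 activity lists without overlap plus Fos, Npas4, Egr1, Nr4a1 and Bdnf, up to 3 members of each other list by size of difference without overlap (1 with the largest difference where none was), the 10 highest and 10 lowest differences without overlap at a mean of at least 10 CPM, and up to 10 genes past an interaction test. Other genes in the text were chosen after their values were seen. No sequences were used here. The table's symbols were used as given. A few named genes are not reported here.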

Additional observations from a re-analysis of the deposited data

Results flagged for a closer look

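Within the 8 Arc-expressing cultures, 118 values (the named genes and the list scores) were searched for a single culture far from the others by Dixon's criterion, which flags about 1 in 20 by chance, and 2 were found. Mki67, the Ki-67 gene, was at 13.5 CPM in culture H, against 23.6 to 38.5 CPM in the other Arc-expressing cultures. Fzd10, a Wnt receptor gene, was at 9.98 CPM in culture N, against 17.1 to 27.2 CPM in the others. Both genes were named because their classes did not overlap, so that both values lay above all 3 Arc-low cultures by selection.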

How the results depend on the processing

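Without each culture in turn, genes higher in the Arc-low cultures numbered 353 to 414 and genes lower 724 to 872, and under all scalings, filters and tools and with each letter run left out both counts stayed within 1.5 times the main values. With culture G added to the Arc-low class they were 111 and 326, called interferon-stimulated genes went from 17 to 5, hypoxia-response genes from 10 to 0, proliferation genes from 6 to 0 and OPC markers from 6 to 2. Npy then had a log2 difference of 0.11. The other 93 of 94 named genes kept their sign under all 22 alternatives. The class difference in dose gave 1 gene (high minus low) with the likelihood ratio test and 1 with DESeq2. Leaving out A, B or C could not be fitted there. High minus low dose with the class covariate gave 16 genes with the replicate block, 15 with the likelihood ratio test, 30 with DESeq2, 0 without H and I, and 0 to 1 with each culture left out. High minus untreated gave 16, 12 and 17, and 0 to 2. The block changed calls in these dose tests and in no class test. For list scores (means, Arc-low minus Arc-expressing), the median in place of the mean gave -1.34 for rapid genes (mean -0.63), -0.95 for effectors (-0.37), 0.31 for Arc partners (-0.05), 0.086 for glutamate receptors (-0.08), -0.70 for GABA-A receptors (-0.57), 0.18 for vesicle genes (0.05), -0.60 for heat shock (0.27), 0.91 for hypoxia (1.48), -1.14 for proliferation (-0.89), -1.38 for OPC (-1.67) and -2.55 for oligodendrocyte markers (-1.99). An offset of 0.1 gave -1.31 for secreted factors (-0.89) and -1.12 for proliferation. The causes were not tested.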

Other observations

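Untreated culture G was in neither class. It had 17 Arc counts (1.11 CPM), fewer than any Arc-low culture relative to its total, with 1 count of Npas4, 1 count of Ostn and 1.23 CPM of Adcyap1. Its neuron score of 4.17 was below the range of 7.29 to 7.68 in all other cultures, and its fibroblast score of 7.62 was above all of theirs. In culture G, Fos at 82.8 CPM was nonetheless just under the Arc-expressing range and Jun at 324 CPM was within it. The OPC score of 6.98 of culture G also lay within the Arc-expressing range. Its hypoxia score of 5.24 lay at the lower edge of that range, which was also 5.24. The scaled values of G come from a scaling over 12 cultures, and the ranges from one over 11. Low Arc therefore occurred in G together with few neuron transcripts. In A, B and C it occurred with a neuron score within the range of the Arc-expressing cultures. Their GABAergic scores of 2.61 to 2.71 lay below the 2.79 to 3.30 of the Arc-expressing cultures. The glutamatergic scores lay above by a very narrow gap, with a lowest value of 5.0255 against 5.0240.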
